A study of Oryctolagus cuniculus with 6 samples.

Results

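MicroRNA-31 (miR-31) was followed in hypertrophic scars of the rabbit ear as its 2 mature arms, miR-31-5p (listed as ocu-miR-31-5p) and miR-31-3p (listed as ocu-miR-31-3p), which are cut from either side of one hairpin. They were taken by name from a table of 467 mature miRNAs. The scars grew from full-thickness wounds, 6 on the ventral face of each ear of female New Zealand White rabbits, and were collected on day 21. Control wounds were treated with saline. The other wounds were treated with ADSC-Exos, the exosomes that adipose-derived stem cells release (vesicles carrying RNA and protein), at 100 µg per 2 ml. The design text gives these applications to the first 3 days after injury, while the sample labels speak of 21 days of treatment. Each group held 3 libraries and 3 rabbits. Nothing states that each library is a separate rabbit, so the p-values measure the spread between these samples, which may be partly technical. The labels name no transgene or deletion and give no age.

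In skin, miR-31 is best known from keratinocytes. In human and mouse wounds it is induced in the epidermis at the wound edge, downstream of NF-κB and STAT3 signalling. There it promotes proliferation and migration by repressing, among others, EMP1, a membrane protein, and negative regulators of RAS signalling such as RASA1 and the SPRED proteins. It is also raised in human psoriatic epidermis. In the RefSeq annotation of rabbit assembly mOryCun1.1 the MIR31 gene was found by its symbol, and its listed synonym is ocu-mir-31. Its nearest named protein-coding genes are IFNE, an epithelial interferon, on one side and MTAP, an enzyme of methionine salvage, on the other, followed by the cell cycle inhibitor gene CDKN2B.

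The deposited values are CPM, read counts brought to the same total in every library. The step between low values places the totals at 2260645 to 5102405 miRNA reads per library. Markers of several tissues were present. The keratinocyte lineage miRNA miR-205-5p ran from 1083 to 5017 CPM, the fibroblast-rich miR-199a-3p from 95046 to 148230 CPM, and the cartilage miRNA miR-140-3p from 836 to 4988 CPM. In such bulk tissue, fewer cells of a type and less RNA per cell cannot be told apart.

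miR-31-5p ranked 57 of 467 miRNAs of the scar by mean CPM. Its level varied several-fold among samples of one group, and its group averages were not separated. It was at 1520.6, 661.5 and 210.9 CPM in saline 1, 2 and 3. In ADSC-Exos 1, 2 and 3 it was at 995.7, 198.4 and 462.9 CPM. The groups overlapped throughout, since saline 1 was the highest library and ADSC-Exos 2 the lowest, with saline 3 next to it. The highest saline library was 7.21 times the lowest, and the highest ADSC-Exos library 5.02 times the lowest. Counting error was far smaller than this. The 4937 reads of saline 1 give an exact 95% Poisson interval of 1478 to 1564 CPM, and the 825 reads of saline 3 give 196.7 to 225.8 CPM. Such intervals cover counting error only.

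miR-31-3p, the minor arm, was at 14.5, 10.1 and 6.9 CPM in saline 1, 2 and 3. In ADSC-Exos 1, 2 and 3 it was at 21.2, 4.3 and 19.2 CPM. Here ADSC-Exos 1 and 3 lay above all saline libraries and ADSC-Exos 2 below all of them. These values stand for 16 reads, in ADSC-Exos 2, to 98 reads, in ADSC-Exos 3. The exact Poisson interval of ADSC-Exos 2, 2.47 to 7.01 CPM, did not reach those of ADSC-Exos 1, 15.7 to 28.2 CPM, or ADSC-Exos 3, 15.6 to 23.4 CPM. ADSC-Exos 2 was thus the lowest library for both arms, whereas the highest was saline 1 for miR-31-5p and ADSC-Exos 1 for miR-31-3p.

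**Figure D1:**
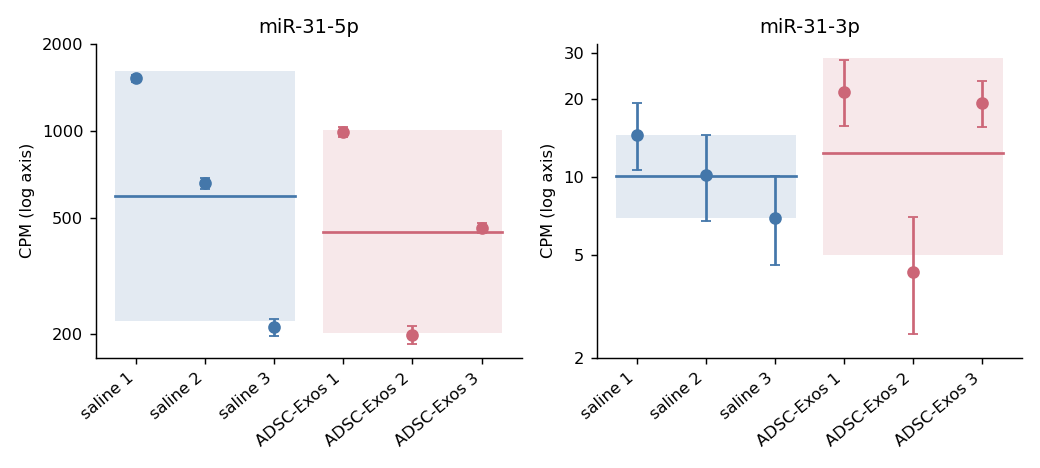
CPM of miR-31-5p (left) and miR-31-3p (right) in each library on a log axis, with saline in blue and ADSC-Exos in red. Points carry exact 95% Poisson intervals of the reads, lines and shaded bands are the group mean ± SD of log2(CPM + 1), and the bands of the groups overlap for both arms.

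The question put to these libraries is whether exosome treatment changed the miRNAs of the scar. miR-31-5p averaged 798 ± 665 CPM with saline and 552 ± 406 CPM with ADSC-Exos (SD, n = 3 per group). In limma, fitted to log2(CPM + 1) of the 224 miRNAs that averaged 10 CPM or more, its log2 fold change of ADSC-Exos over saline was -0.40 ± 0.75 (SE), with a Benjamini-Hochberg adjusted p of 0.996. The 95% interval ran from -2.10 to 1.29, that is, from 0.233 to 2.45 times the saline level. An exact permutation test, two-sided, of the 3 saline against the 3 ADSC-Exos libraries gave p = 0.7, where the smallest possible is 0.1. The sign rested on single libraries. The log2 fold change was 0.27 without saline 1 and 0.19 without ADSC-Exos 2, but -1.15 without saline 3 and -0.97 without ADSC-Exos 1, with adjusted p between 0.641 and 0.998 in limma over all leave-outs.

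miR-31-3p averaged 10.5 ± 3.82 CPM with saline and 14.9 ± 9.23 CPM with ADSC-Exos (SD, n = 3 per group). limma put its log2 fold change at 0.27 ± 0.61 (SE, adjusted p = 0.996), and the 95% interval ran from -1.10 to 1.64. The exact permutation p was 0.8. Without ADSC-Exos 1 or ADSC-Exos 3 the log2 fold change was -0.098 and -0.030, and without ADSC-Exos 2 it was 0.93 (adjusted p = 0.996 in limma).

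Neither arm passed the test, and none of the 224 miRNAs did: 0 (0%) had an adjusted p of at most 0.05 in limma, and 8 (3.57%) had an unadjusted p under 0.05. limma-voom, run on reads estimated from those steps, likewise found 0 and 8. The groups did not overlap for 11 miRNAs (4.91%), and both miR-31 arms were among those that did overlap. By unadjusted p, miR-31-5p stood at place 119 and miR-31-3p at place 138 of 224.

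**Figure D2:**
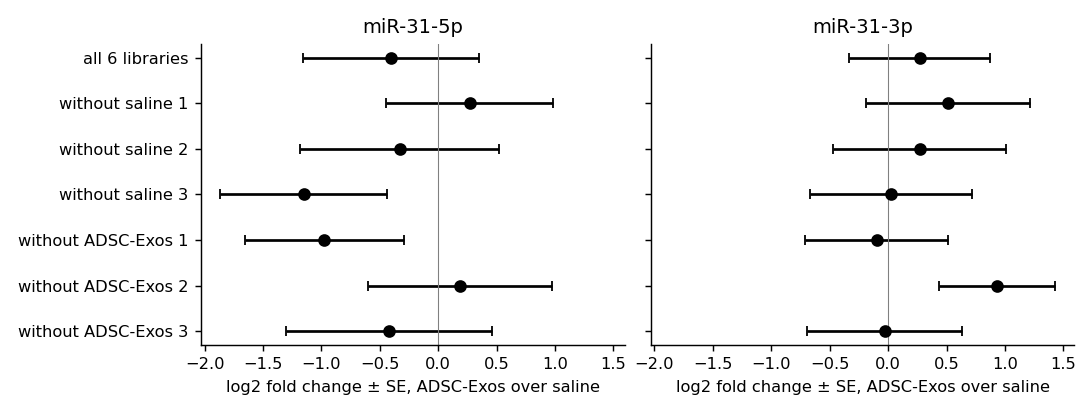
log2 fold change ± SE of ADSC-Exos over saline for miR-31-5p (left) and miR-31-3p (right), with all 6 libraries and with each library left out in turn. The value of miR-31-5p ran from -1.15 to 0.27 and that of miR-31-3p from -0.098 to 0.93.

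miR-31-5p had one of the widest spreads within groups in the table. The pooled within-group SD of its log2(CPM + 1) was 1.30, against a median of 0.458 over the 224 miRNAs. It ranked 4 of 224, behind the muscle miRNA miR-206-3p, miR-194-3p and miR-211-5p, a miRNA of melanocytes, which all averaged under 50 CPM (47.8, 34.7 and 40.02 CPM). Among the 116 miRNAs that averaged 100 CPM or more, miR-31-5p had the widest spread of all, followed by miR-744-5p at 1.08. Its saline SD of 1.43 ranked 4 of 224 and its ADSC-Exos SD of 1.16 ranked 16, so the spread was wide in either group. These ranks are a description, with no test. miR-31-3p had a pooled SD of 0.887 and ranked 22, with 0.486 in saline and 1.16 in ADSC-Exos.

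The miRNAs of nearly the same abundance show what a narrow spread looks like. By mean CPM, miR-31-5p ranked 57 of 467, between miR-660-5p (678 CPM) and miR-185-5p (662 CPM). miR-660-5p stayed within 553.7 to 754 CPM in all 6 libraries, with a pooled SD of 0.13, and miR-185-5p within 539.7 to 925.9 CPM, with 0.21. The next neighbours, miR-7a-5p (739 CPM) and miR-92a-3p (658 CPM), had 0.34 and 0.69. The place of miR-31-5p among all miRNAs moved from 43 in saline 1 to 93 in saline 3. miR-31-3p ranked 212 of 467 at a mean of 12.7 CPM, between the liver miRNA miR-122-5p (12.9 CPM) and miR-10a-3p (12.45 CPM), with miR-376a-3p and miR-375-3p the next on either side.

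**Figure D3:**
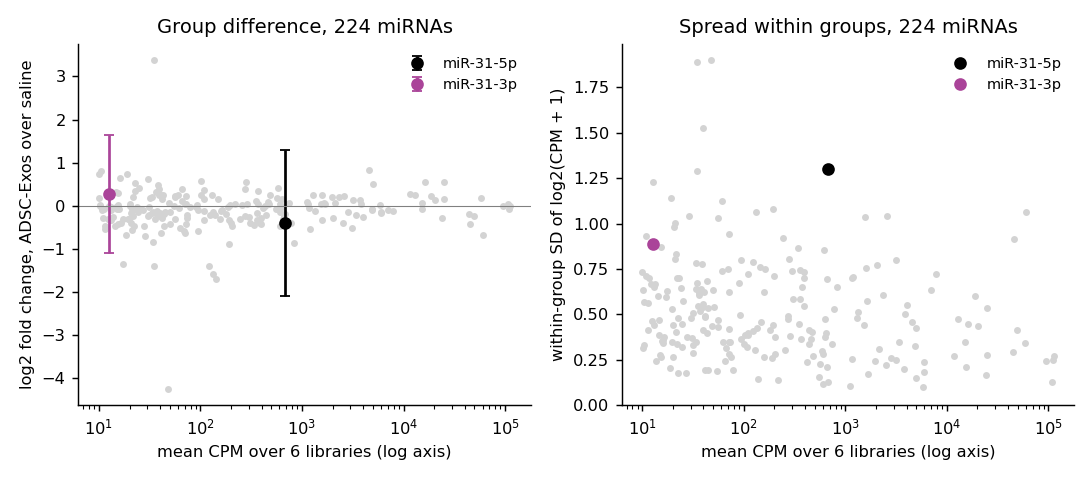
Log2 fold change of ADSC-Exos over saline (left; bars are 95% intervals) and pooled within-group SD of log2(CPM + 1) (right) against mean CPM for the 224 tested miRNAs in grey, with miR-31-5p in black and miR-31-3p in purple. The intervals of both arms cross 0, and miR-31-5p lies above every other miRNA of at least 100 CPM in spread.

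The 5p arm dominated the hairpin in every library, by a factor that itself varied. The ratio of miR-31-5p to miR-31-3p was 105, 65.5 and 30.6 in saline 1, 2 and 3. In ADSC-Exos 1, 2 and 3 it was 47.0, 46.1 and 24.1. The 2 highest ratios were saline libraries, but saline 3 lay inside the ADSC-Exos range. On the scale of log2((5p + 1)/(3p + 1)) the mean was 5.75 ± 0.94 in saline and 5.08 ± 0.50 in ADSC-Exos (SD, n = 3 each), a difference of -0.67 (exact two-sided permutation p = 0.4, smallest possible 0.1). Saline 3 was the only saline library in that range, so leaving it out was bound to part the groups (difference -1.18, exact p = 0.1, the smallest possible there). Leaving out any other library gave differences from -0.88 to -0.24, with exact permutation p from 0.3 to 0.8.

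Among the 57 hairpins whose arms were both tested, the 5p arm was the more abundant in 38. miR-31 ranked 19 in the size of its arm bias, with a mean log2 ratio of 5.42 against a median size of 3.78. It ranked 13 in the within-group SD of the ratio (0.756, median 0.566). The distance between its arms in log2 fold change, 0.673 in size, ranked 8 (median 0.239). In the denominator of this ratio stand 16 to 98 reads of miR-31-3p.

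**Figure D4:**
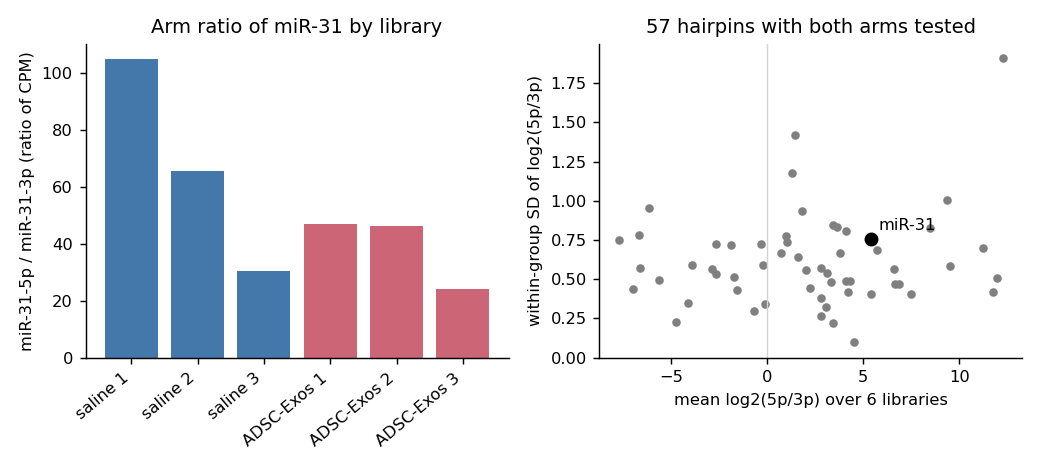
Ratio of miR-31-5p to miR-31-3p CPM in each library (left; bars start at 0, saline in blue, ADSC-Exos in red), and mean against within-group SD of log2(5p/3p) for 57 hairpins (right). The ratio ran from 24.1 in ADSC-Exos 3 to 105 in saline 1, and miR-31 lay among the hairpins with a moderate bias to the 5p arm.

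The keratinocyte and epithelium miRNAs did not follow miR-31-5p as a block. Of 13 rows, 10 passed the level filter. No row of miR-203, miR-200a, miR-200b or miR-429, which are also on the list, was among these 10. Of the 10, 5 had log2 fold changes above 0 and 5 below, with a median of -0.044. Over all tested, 88 were above and 136 below, with a median of -0.082. The median of the list turned to 0.020 and 0.078 under median-of-ratios and quantile scaling, to 0.33 without saline 1 and to 0.20 without ADSC-Exos 3. It was also above 0 with no filter (0.036) and with a pseudocount of 10 (0.0061). Further below 0, it was -0.28 among miRNAs averaging 100 CPM or more (2 above 0 and 3 below) and -0.32 without ADSC-Exos 1. None of the 10 passed the test in limma. Their summed level ran from 10197 to 14723 CPM in saline and from 9200 to 16987 CPM in ADSC-Exos. Within saline, the order of this sum was that of miR-31-5p. In ADSC-Exos, library 1 was the highest in both, but library 3 had the lowest sum and library 2 the lowest miR-31-5p. Their part in the spread of miR-31-5p was not tested.

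miR-205-5p, which maintains the keratinocyte lineage, was at 5017.1, 3280.9 and 2331.1 CPM across saline and 3781.2, 3239.9 and 1083 CPM across ADSC-Exos. The ratio of miR-31-5p to it was 0.303, 0.202 and 0.0905 in saline and 0.263, 0.0612 and 0.427 in ADSC-Exos, so ADSC-Exos 3 combined the lowest miR-205-5p with the highest ratio. miR-141-3p and miR-200c-3p of the miR-200 family, which hold epithelial identity by repressing ZEB transcription factors, were far steadier. miR-200c-3p ran from 1635 to 2469 CPM, with a pooled SD of 0.25. miR-141-3p was at 4137, 4007 and 4104 CPM across saline and 5645, 6820 and 5111 CPM across ADSC-Exos. It was the 1 member of 10 tested whose groups did not overlap, near the share of 11 of 224 (4.91%) over all tested. limma gave it a log2 fold change of 0.51 ± 0.25 (SE, adjusted p = 0.996). Against this level, miR-31-5p ran from 0.0291 of miR-141-3p in ADSC-Exos 2 to 0.368 in saline 1.

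The miR-183 cluster, transcribed as one unit with roles in sensory and epithelial cells, lay between these patterns. miR-183-5p was at 931.7, 688.3 and 400.6 CPM across saline and 1040, 345.8 and 268.1 CPM across ADSC-Exos. miR-182-5p ran from 969.9 CPM in ADSC-Exos 3 to 3820 CPM in ADSC-Exos 1. Both were highest in ADSC-Exos 1 and lowest in ADSC-Exos 3, unlike miR-31-5p. Their log2 fold changes were -0.47 ± 0.53 and -0.28 ± 0.49 (SE). The third member, miR-96-5p, went with miR-31-5p instead, highest in saline 1 and, within ADSC-Exos, lowest in library 2. Its log2 fold change was -0.32 ± 0.63 (SE). The remaining members that passed the level filter were minor arms and miR-184-3p of surface epithelium. miR-184-3p had a log2 fold change of 0.73 ± 0.52, miR-205-3p 0.41 ± 0.41, miR-141-5p 0.40 ± 0.38 and miR-200c-5p -0.41 ± 0.63 (SE).

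The mean log2 level of the 10 epithelial rows is drawn down by minor arms and miR-184-3p, which averaged 10.1 to 39.35 CPM. In every library miR-31-5p was above these and below miR-205-5p, miR-141-3p and miR-200c-3p. Set against this mean in the same library, miR-31-5p stood 2.52, 1.63 and 0.29 log2 units above it in saline. In ADSC-Exos it stood 1.61 above, 0.085 below (-0.085) and 1.63 above. Saline 3 and ADSC-Exos 2 were the lowest of their groups in this measure, as in CPM. Its SD was 1.12 in saline and 0.98 in ADSC-Exos, against 1.43 and 1.16 for log2(CPM + 1) of miR-31-5p itself. The group means were 1.48 ± 1.12 and 1.05 ± 0.98 (SD, n = 3 each), a difference of -0.43 (exact two-sided permutation p = 0.5, smallest possible 0.1). Without saline 1 the difference was 0.092 and without ADSC-Exos 2 it was 0.18.

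The tested miRNAs with the profile most like that of miR-31-5p over the 6 libraries were miR-96-5p, miR-18a-5p, miR-20a-5p, miR-6529-5p and miR-125b-2-3p. Likeness was the root mean square difference of log2(CPM + 1) after removing each miRNA's own mean. It was 0.43, 0.49, 0.52, 0.62 and 0.65 for them, where the median over 223 miRNAs was 1.15. miR-96-5p, the third member of the miR-183 cluster, was at 139.2, 41.8 and 23 CPM across saline and 70.3, 29.4 and 33.3 CPM across ADSC-Exos, and the ratio of miR-31-5p to it stayed between 6.75 and 15.8. miR-18a-5p and miR-20a-5p belong to the miR-17-92 cluster, which promotes proliferation. miR-18a-5p was at 74.5, 28.9 and 18.4 CPM across saline and 62.8, 7.3 and 13.3 CPM across ADSC-Exos. miR-20a-5p was at 673.6, 295.8 and 204.8 CPM and at 473.3, 211.1 and 287.1 CPM. All 5 were highest in saline 1, as their choice by likeness favours. miR-125b-2-3p had its next highest value in ADSC-Exos 3, and the other 4 in ADSC-Exos 1.

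miR-31-3p was closest to miR-324-5p, miR-450b-5p and miR-12092-5p, with root mean square differences of 0.33, 0.34 and 0.47 (median 0.861 over 223). miR-324-5p was at 64.1, 56 and 52.1 CPM across saline and 105.3, 24.8 and 62.3 CPM across ADSC-Exos. miR-450b-5p, from the cluster that also encodes miR-424 and miR-503, was at 72.7, 47 and 35.8 CPM and at 55.3, 24.6 and 65.5 CPM. All 3 were lowest in ADSC-Exos 2, which their choice by likeness likewise favours. The arms of miR-31 differed from each other by 0.703, so that miR-31-3p was the 12th closest miRNA to miR-31-5p, while miR-31-5p was the 43rd closest to miR-31-3p.

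**Figure D5:**
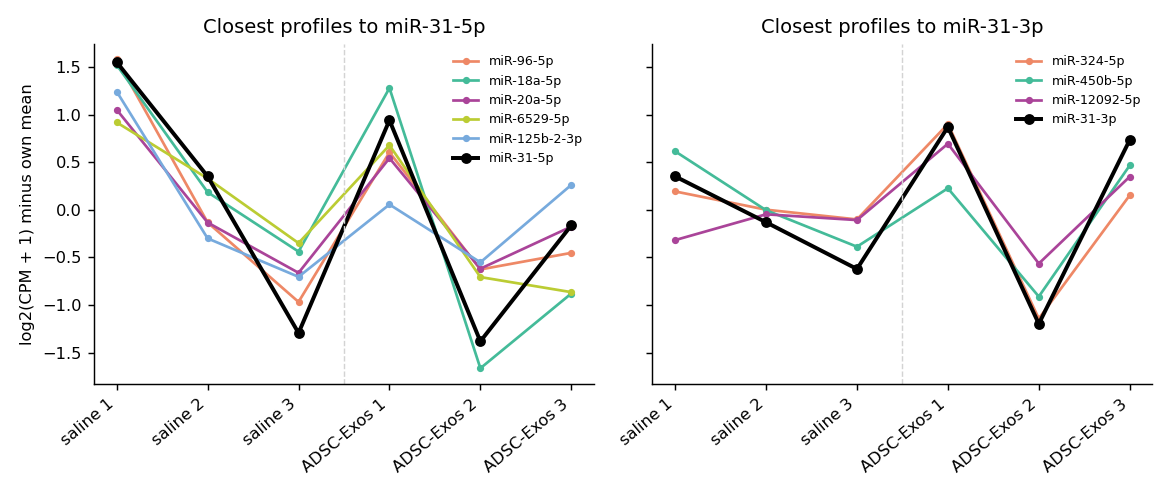
log2(CPM + 1) minus each miRNA's own mean in the 6 libraries for miR-31-5p and the 5 closest miRNAs (left) and for miR-31-3p and the 3 closest (right); lines only join values of one miRNA, and the dashed line parts the groups. All profiles on the left peak in saline 1, and those on the right are lowest in ADSC-Exos 2, which choosing them by likeness favours.

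Other miRNAs listed for skin repair and inflammation gave no called change in limma. Of 12 tested rows of wound-healing keratinocyte miRNAs, 6 had log2 fold changes above 0 and 6 below (median 0.058, but -0.038 without saline 2, -0.17 among miRNAs averaging 100 CPM or more and -0.0031 with no filter). Their most abundant member was miR-21-5p, induced in wounds and fibrosis, at 0.56 ± 0.36 (SE), followed by miR-205-5p. Of 5 rows induced by NF-κB or cytokines, 4 were above 0 and 1 below (median 0.24, and -0.092 without saline 3), with miR-146a-5p, a brake on NF-κB signalling, at -0.26 ± 0.38 (SE). miR-146a-5p was lowest in saline 1, at 2642.1 CPM, the library with the highest miR-31-5p. However, it was highest in ADSC-Exos 1, at 5315.7 CPM, where miR-31-5p was the highest of its group. In ADSC-Exos 2, where miR-31-5p was lowest, miR-146a-5p was at 2793.4 CPM, and the relation was not tested. Of 8 rows reported higher in psoriatic skin, 3 were above 0 and 5 below (median -0.035, which turned to 0.029 and 0.096 under the other scalings, 0.045 without ADSC-Exos 1 and 0.074 among miRNAs averaging 100 CPM or more), led by miR-21-5p and miR-146a-5p. Of 6 rows reported lower there, 2 were above 0 and 4 below (median -0.21, and 0.038 without ADSC-Exos 3), led by miR-125b-5p at -0.67 ± 0.61 and miR-99a-5p at -0.40 ± 0.27 (SE). These lists share members.

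Markers of other tissues differed between libraries alongside miR-31-5p, and their part in its spread was not tested. The summed cartilage miRNAs were lowest in ADSC-Exos 1 and saline 1, at 1461 and 2110 CPM, the 2 libraries with the highest miR-31-5p. They were highest in ADSC-Exos 2, at 7602 CPM, where miR-31-5p was lowest. All 4 cartilage rows were above 0 (median 0.25), led by miR-140-3p at 0.23 ± 0.62 and miR-140-5p at 0.26 ± 0.61 (SE), but the median was -0.17 without ADSC-Exos 2, -0.060 without ADSC-Exos 3 and -0.063 without saline 1. The 4 fibroblast rows split 2 and 2 (median 0.10; -0.18 without ADSC-Exos 3 and -0.021 without saline 1), with sums of 117972 to 143972 CPM in saline and 113480 to 164725 CPM in ADSC-Exos. miR-199a-3p was at -0.015 ± 0.24, 3 of 4 rows lying above 0 under either other scaling, and miR-199a-5p at 0.22 ± 0.39 (SE).

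Of 6 leukocyte rows, 2 were above 0 and 4 below (median -0.27), with miR-155-5p at 0.21 ± 0.41 and miR-223-3p at -0.55 ± 0.46 (SE), and sums of 4736 to 5319 CPM in saline and 3870 to 4799 CPM in ADSC-Exos. The 4 red blood cell rows were all below 0 (median -1.49), with miR-451-5p at -1.71 ± 0.50 and miR-144-3p at -1.59 ± 0.64 (SE). Their sums were 442.9 to 852.8 CPM in saline and 109.2 to 471.5 CPM in ADSC-Exos. Saline 1 had the lowest sum of its group but ADSC-Exos 1 the highest of its own, while both held the highest miR-31-5p of their groups. The 3 skeletal muscle rows were below 0 (median -0.70, and 0.080 without ADSC-Exos 1), with miR-1-3p at -0.33 ± 0.48 and miR-206-3p at -4.24 ± 1.10 (SE), and sums of 1453 to 2134 CPM in saline and 609.1 to 2375 CPM in ADSC-Exos. The 4 smooth muscle rows were below 0 (median -0.27, and 0.15 without ADSC-Exos 1), with -0.43 ± 0.53 for miR-143-3p and -0.11 ± 0.38 for miR-145-5p (SE), and sums of 38229 to 70397 CPM and 14505 to 67009 CPM. With all 6 libraries, no row of these lists had an adjusted p of at most 0.05 in limma, while all 4 red blood cell rows were among the 8 of 224 with an unadjusted p under 0.05. Without ADSC-Exos 1, miR-144-3p, miR-451-5p and miR-486-5p passed in limma, and without saline 3 miR-206-3p did. Saline 3 held 4.6 CPM of miR-206-3p, near the 1.2 to 1.8 CPM of ADSC-Exos, while saline 1 and 2 held 131.5 and 145.8 CPM.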

How the data were processed

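Small RNA libraries of 6 scar samples, 3 saline and 3 ADSC-Exos, were analysed. The authors deposited 1 table of CPM values to 1 decimal. Tools listed in the submitters' processing notes, without their roles, are DESeq2 1.30.1, STAR 2.7.6a, HTSeq 2.0.3, Trimmomatic 0.40 and FastQC 1.0.0. Not given in the sources used here are the genome build, the annotation and the strand setting, and coordinates are left out. Since CPM values share one total, a change in an abundant miRNA shifts the others.

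Read totals were sought as the number for which values are multiples of 1 read within 0.05 CPM, with the lowest value as 1 read. This took in 2378 of 2382 values above 0 (99.8%). In ADSC-Exos 3 the total was tied with another.

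limma 3.58.1 (R 4.3.3) was fitted with a mean-variance trend and group as the only term to log2(CPM + 1), keeping miRNAs that averaged 10 CPM or more, with two-sided tests and Benjamini-Hochberg adjustment over all tested. Fold changes on this scale understate those of low miRNAs. The fit was tested on simulated data. The members and the 11 lists were chosen with earlier results of these data known. Named were both arms, the tested epithelial miRNAs, the 2 most abundant members of each other list, the 5 and 3 closest profiles and the neighbours in abundance. miR-206-3p, miR-194-3p, miR-211-5p and miR-744-5p were named for their spread, and miR-140-5p, miR-183-5p and minor arms beside their lists, after values were seen. Shared seeds were not analysed here.

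The alternatives were median-of-ratios and quantile scaling, pseudocounts of 0.1 and 10, testing every row, testing only miRNAs that averaged 100 CPM or more, a replicate block, leaving out libraries one at a time with the filter applied anew, and limma-voom on the reads. The labels number replicates 1 to 3 in either group without saying that a number is shared. Planned count models other than limma-voom were not run, as rounding leaves the reads an estimate.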

Additional observations from a re-analysis of the deposited data

How the results depend on the processing

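Over the 14 alternatives run for miR-31-5p and the 13 for miR-31-3p, neither arm had an adjusted p of at most 0.05 in limma, with 0.641 as the lowest for miR-31-5p and 0.978 for miR-31-3p. A mean of at least 100 CPM leaves miR-31-3p untested. Other scalings, pseudocounts, filters and limma-voom kept the sign of both, and 2 leave-outs turned it for each. Over leave-outs the log2 fold change ran from -1.15 to 0.27 for miR-31-5p and from -0.098 to 0.93 for miR-31-3p, the arm balance difference from -1.18 to -0.24, and the difference of miR-31-5p from the epithelial miRNAs from -1.02 to 0.18. With 1 library left out the exact test cannot give a p under 0.1. The arm balance without saline 3 (-1.18) was at that limit, which leaving out the only overlapping saline library fixes in advance. In the reversals a single library was left out (miR-31-5p, 0.27 without saline 1 and 0.19 without ADSC-Exos 2; miR-31-3p, -0.098 without ADSC-Exos 1 and -0.030 without ADSC-Exos 3; against the epithelial miRNAs, 0.092 without saline 1 and 0.18 without ADSC-Exos 2). The counts of called miRNAs ran over leave-outs from 0 to 1 for higher and from 0 to 3 for lower levels, with 1 higher (miR-194-3p) and 3 lower (miR-144-3p, miR-451-5p and miR-486-5p) without ADSC-Exos 1 and 1 lower (miR-206-3p) without saline 3. No other alternative called any.

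Over all tested miRNAs, samples of the same replicate number did not deviate together (correlations of -0.11, -0.018 and -0.13). The numbers were therefore not taken as pairs. For miR-31-5p itself, library 1 was the highest of each group. With the replicate block, 0 miRNAs were called. miR-31-5p then had -0.40 ± 0.51, against ± 0.75 without the block, and miR-31-3p 0.27 ± 0.60 (SE). The arm balance difference was -0.67 and the epithelial difference -0.43. An exact test that flips the sign of each same-number difference gave p = 0.25 and p = 0.75 for them. With its 8 arrangements, 0.25 is the smallest possible. The 16 reads of miR-31-3p in ADSC-Exos 2 limit what its ratios can show.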

Other observations

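miR-211-5p, a miRNA of melanocytes, also had a wide spread in either group. Saline 1, 2 and 3 held 81.6, 25.4 and 12.8 CPM of it, and ADSC-Exos 1, 2 and 3 held 83.2, 30.2 and 6.9 CPM. Its pooled within-group SD of log2(CPM + 1) was 1.52. As for miR-31-5p, library 1 was the highest in each group and saline 3 the lowest of saline, but the lowest ADSC-Exos library was 3 for miR-211-5p and 2 for miR-31-5p. It was named after its values were seen, and the relation was not tested.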
